A study of Mus musculus with 24 samples.

Results

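The PGC-1 coactivators and the regulators of endurance adaptation that work with them were followed in mouse calf muscle, as 10 genes chosen by name. They were the coactivators Ppargc1a, Ppargc1b and Perm1, the nuclear receptors Esrra, Esrrg, Ppara and Ppard, the transcription factors Nrf1 and Tfam, and the deacetylase Sirt3. All 10 were found by Ensembl identifier among the 54532 genes of the count files, and all 10 passed the filter on low counts in every fit, so the counts given for them cover the whole set.

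PGC-1alpha, the product of Ppargc1a, is a coactivator that binds transcription factors rather than DNA, and in muscle its gene is switched on by contraction through calcium, AMPK and p38 signalling. Through the estrogen-related receptors, the PPARs and nuclear respiratory factor 1 it raises genes of fatty acid oxidation and oxidative phosphorylation, and through TFAM the copying and transcription of mitochondrial DNA. Perm1 is itself induced by PGC-1 and the estrogen-related receptors in muscle, and endurance training is known to raise this programme together with mitochondrial content.

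The tissue was the left gastrocnemius of wild type C57/BL6 mice of both sexes, 24 libraries in 6 groups of 4, with no age given. The control mice stayed sedentary and received saline at pH 7.2 in the gastrocnemius, in 2 injections of 20 µl with 5 days between them. For sedentary pain the same schedule and volume were used with saline at pH 5.0, and 6 min of electrically evoked contraction came before the second injection. The active pain mice had 8 weeks of access to running wheels and then that acid and contraction procedure. All libraries carry a time of 24 h, and no group ran without the pain procedure, so running alone cannot be separated from it, nor acid from contraction. Since nothing states how each sample was obtained beyond its own label, p-values measure the spread between these samples.

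Library totals ran from 17612139 to 34039699 counts. The tissue label held: 26 muscle fibre genes summed to between 199742 and 420675 counts per 1000000 counts (CPM) in every library. Several libraries stood apart in immune cell RNA. The sum of 14 macrophage genes was 119 to 267 CPM in female controls and 605, 1057, 5067 and 7464 CPM in female sedentary pain replicates 1 to 4, and 14 of 14 of these genes were higher there in the test described below. In females with active pain it was 319 to 668 CPM. In males it was 79.2 to 176 CPM in controls, 174 to 1071 CPM in sedentary pain and 281 to 662 CPM in active pain, with male sedentary pain replicate 1 and male active pain replicate 2 highest in their groups. The sum of 10 neutrophil genes was 3.24 to 9.08 CPM in female controls and 30.4, 361, 77.3 and 124 CPM in female sedentary pain replicates 1 to 4, where 9 of 10 were called higher. Of all genes tested 19.6% were called higher in that comparison. The neutrophil sum was 10.1 to 156 CPM in females with active pain, highest in replicate 3. The same male sedentary pain replicate 1 had 411 CPM against 6.33 to 8.30 CPM in the other 3 of its group, and male active pain replicate 2 had 118 CPM against 10.2 to 13.2 CPM. In bulk tissue, fewer muscle cells and less RNA of a gene per muscle cell cannot be told apart, so these levels are given again beside the results.

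Levels are CPM scaled by the trimmed mean of M-values (TMM), listed in the order of replicates 1 to 4, and a group value is the mean ± SD (n = 4). Changes are log2 fold changes ± SE from edgeR's quasi-likelihood test with Benjamini-Hochberg adjustment over all genes tested, with a threshold of 0.05. A gene is called higher or lower only where it passed.

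The promoter windows below belong to the 4 genes called lower in females with sedentary pain and to Esrrg, called higher in active against sedentary pain. They are shown so that a reader can see what these starts have and do not have in common. Each runs from 250 bases before to 50 after the RefSeq start on GRCm38.p6, read along the gene's strand. Capitals mark the motif matches named after them, apart from the GC box.
Ppargc1a: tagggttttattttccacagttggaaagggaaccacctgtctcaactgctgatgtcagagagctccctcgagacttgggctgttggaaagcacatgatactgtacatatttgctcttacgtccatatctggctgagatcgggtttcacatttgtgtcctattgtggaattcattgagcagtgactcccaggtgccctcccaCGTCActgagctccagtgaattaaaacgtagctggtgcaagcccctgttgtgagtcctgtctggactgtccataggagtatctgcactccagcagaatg
Perm1: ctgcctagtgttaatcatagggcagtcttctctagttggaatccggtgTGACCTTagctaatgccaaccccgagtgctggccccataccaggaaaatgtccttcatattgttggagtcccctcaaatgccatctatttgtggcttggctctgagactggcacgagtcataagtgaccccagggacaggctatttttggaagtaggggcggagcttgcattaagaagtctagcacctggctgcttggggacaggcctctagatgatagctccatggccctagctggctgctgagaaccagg
Ppara: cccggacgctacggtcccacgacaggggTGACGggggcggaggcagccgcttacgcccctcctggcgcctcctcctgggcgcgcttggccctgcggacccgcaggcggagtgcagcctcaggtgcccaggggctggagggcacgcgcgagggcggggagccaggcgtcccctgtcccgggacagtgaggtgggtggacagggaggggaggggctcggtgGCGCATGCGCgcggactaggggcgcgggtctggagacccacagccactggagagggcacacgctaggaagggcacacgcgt
Sirt3: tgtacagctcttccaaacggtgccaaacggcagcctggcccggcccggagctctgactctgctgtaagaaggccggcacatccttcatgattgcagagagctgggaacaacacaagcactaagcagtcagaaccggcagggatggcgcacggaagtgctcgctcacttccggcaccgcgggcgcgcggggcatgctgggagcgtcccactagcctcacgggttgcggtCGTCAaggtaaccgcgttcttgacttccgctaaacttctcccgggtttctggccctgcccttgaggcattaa
Esrrg: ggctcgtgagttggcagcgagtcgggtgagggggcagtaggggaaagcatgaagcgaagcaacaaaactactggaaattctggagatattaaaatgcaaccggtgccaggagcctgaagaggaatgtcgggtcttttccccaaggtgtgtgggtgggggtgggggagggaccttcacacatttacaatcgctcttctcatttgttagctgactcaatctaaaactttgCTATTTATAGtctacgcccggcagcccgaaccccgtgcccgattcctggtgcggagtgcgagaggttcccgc
The windows are chr5:51567676-51567975 on the minus strand for Ppargc1a, chr4:156215677-156215976 on the plus strand for Perm1, chr15:85735526-85735825 on the plus strand for Ppara, chr7:140882260-140882559 on the minus strand for Sirt3 and chr1:187608756-187609055 on the plus strand for Esrrg. The RefSeq start of Ppara lies 793 bases and that of Esrrg 215 bases from the GENCODE gene start, and RefSeq lists other starts for Esrrg and Sirt3. Windows of 9 of the 10 genes were searched on both strands. The estrogen-related receptor element AAGGTCA, which contains the nuclear receptor half-site AGGTCA, was found in Perm1 alone of the 9, as TGACCTT on the minus strand with its first base at -202. Of 32851 RefSeq promoters 4.72% hold AAGGTCA and 16.3% AGGTCA. The CRE half-site TGACG, the short form of the element bound by CREB, stood at -49 in Ppargc1a and -22 in Sirt3 on the minus strand, and at -222 in Ppara and -4 in Ppard on the plus strand, and 20.8% of all promoters hold it. The full CRE TGACGTCA, found in 1.79% of promoters, was in none of the 9 windows. The NRF1 element, a palindrome held by 4.60% of promoters, was in the Ppara window at -31. A MEF2-type element, also a palindrome and held by 3.69% of promoters, was in the Esrrg window at -22. The GC box GGGCGG, held by 35.7% of promoters, stood at -46 in Perm1 and at -216 and -101 in Ppara. It was also in the windows of Esrra, Ppard, Nrf1 and Tfam, and not in those of Ppargc1a, Sirt3 and Esrrg. These are matches of letters in a short window, and no binding was measured.

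Per kilobase of exon the 10 genes spanned a wide range of levels. In female controls Perm1 stood highest at 44.7 ± 8.10 CPM per kb, followed by Esrra at 22.6 ± 2.99, Tfam at 9.22 ± 0.72, Ppard at 4.74 ± 0.78 and Ppargc1a at 3.16 ± 0.57 CPM per kb. No neighbours in that part of the order overlapped between libraries. Below them Sirt3 at 2.49, Esrrg at 1.62, Nrf1 at 1.15, Ppara at 0.942 and Ppargc1b at 0.849 CPM per kb each overlapped the next. Male controls had the same order from Perm1 down to Sirt3, with Ppargc1a at 4.85 ± 0.97 overlapping Ppard at 4.92 ± 0.10 CPM per kb. In females with sedentary pain the top of the order was Esrra at 21.5 ± 6.24 and Perm1 at 20.4 ± 10.9 CPM per kb, which overlapped, and Ppara closed it at 0.147 ± 0.12 CPM per kb.

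**Figure D1:**
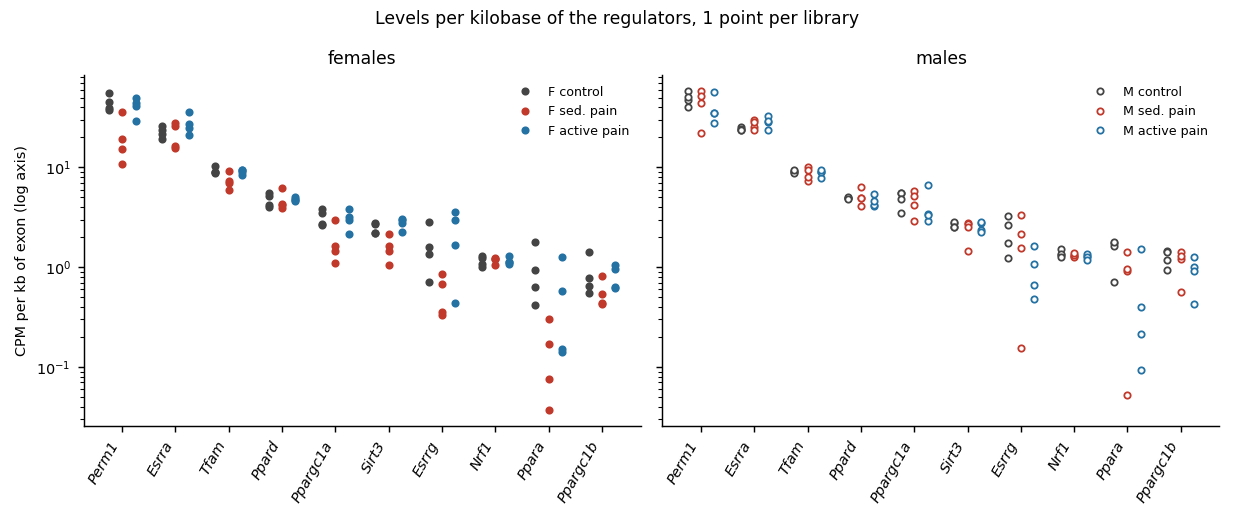
CPM per kilobase of exon (log axis) of the 10 genes, 1 point per library, with females in the left panel and males in the right panel and the 3 conditions in separate colours. The genes are ordered by their mean in female controls, and the Perm1 and Ppara points of females with sedentary pain (red) lie below those of female controls (grey).

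In females, the pain procedure without running went with lower RNA of 4 of the 10 genes, Ppara, Perm1, Ppargc1a and Sirt3, against controls. None of the 10 was called higher. Of all 14511 genes tested 13.9% were called lower, 19.6% higher and 33.5% in either direction, so the 4 of 10 stand beside a comparison in which many genes moved. Before adjustment 6 of the 10 had a p under 0.05, as did 47.6% of all genes. In females that had run before the same procedure none of the 10 was called against controls, where no gene at all was called. Against sedentary pain 2 of the 10, Sirt3 and Esrrg, were called higher, as were 2.51% of all genes tested. In males none of the 10, and no gene at all, was called in any of the 3 comparisons.

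**Figure D2:**
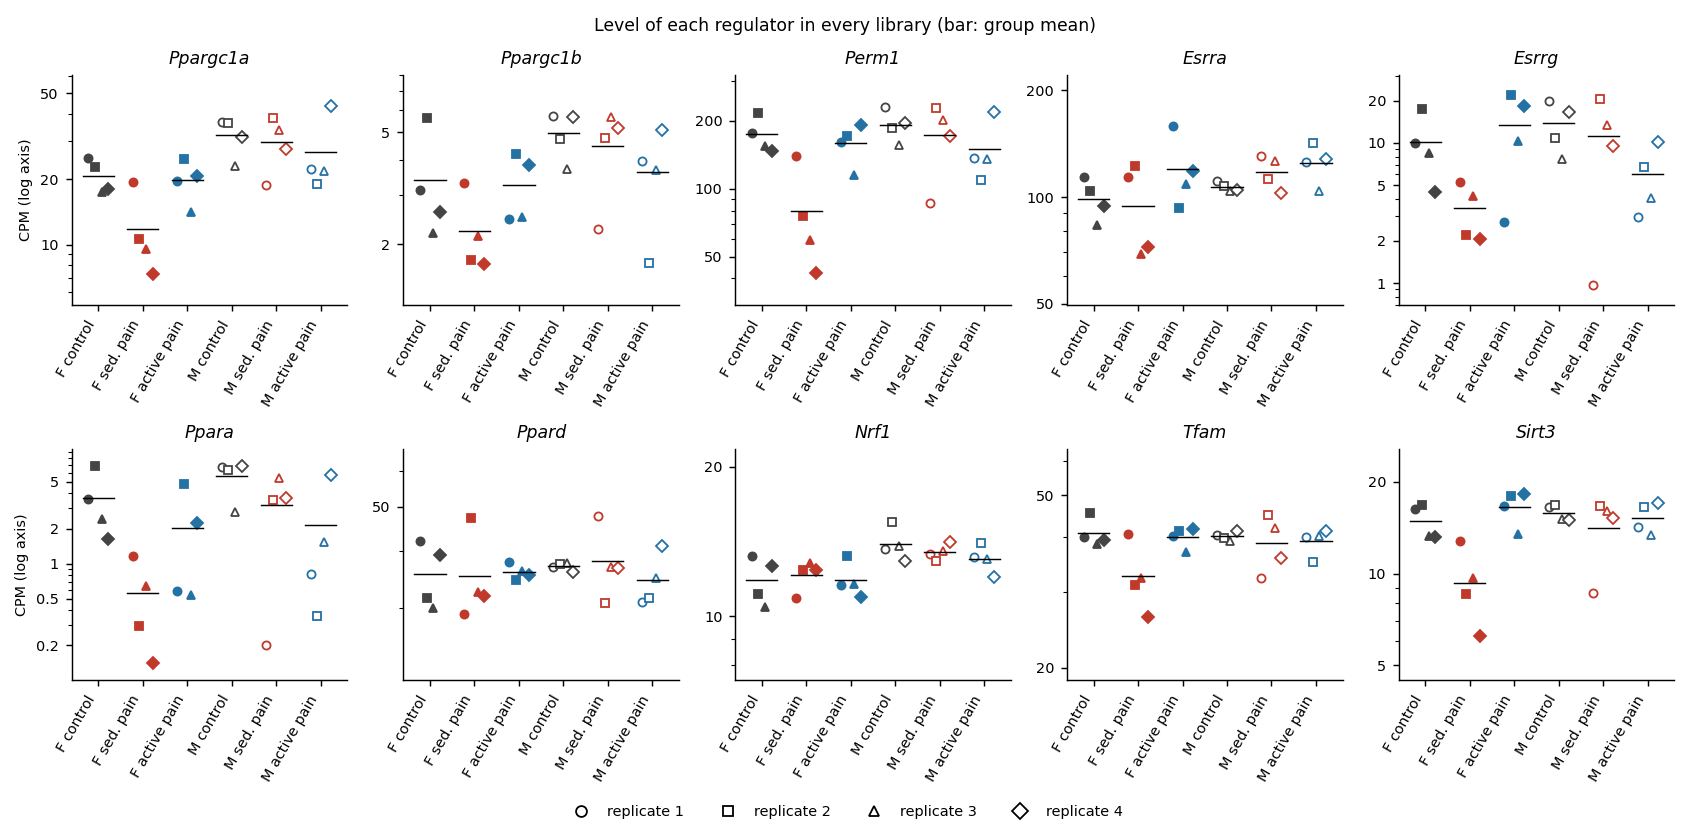
CPM of each gene (log axis) in every library, 1 panel per gene, with groups along the x axis, marker shape for the replicate and a bar for the group mean. In the Perm1, Ppara and Sirt3 panels all 4 libraries of females with sedentary pain lie below all 4 female controls, and male sedentary pain replicate 1 lies below the rest of its group.

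**Figure D3:**
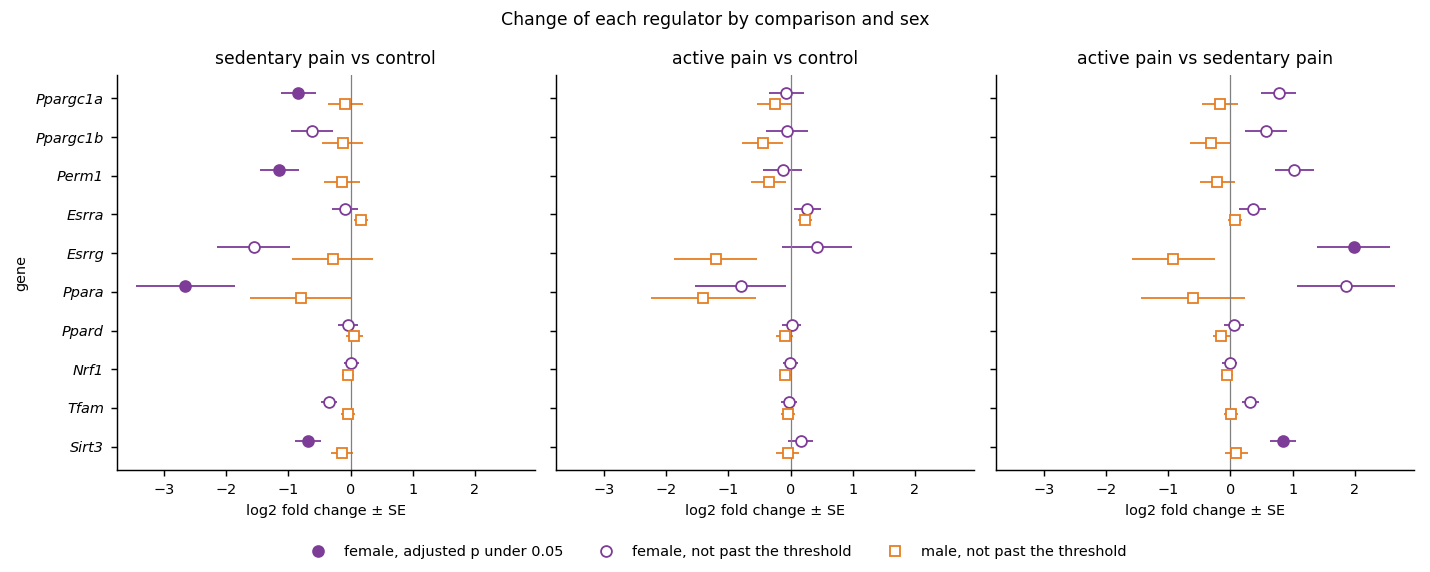
Log2 fold change ± SE of each gene in 3 comparisons (panels), with females as circles and males as squares, filled where the adjusted p passed the threshold. The 4 filled points on the left are Ppargc1a, Perm1, Ppara and Sirt3 in females, the 2 on the right are Esrrg and Sirt3, and no male point is filled.

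Among the coactivators, Ppargc1a (ENSMUSG00000029167, chr5:51454250-51567726, minus strand, GRCm38) measured 25.2, 22.8, 17.5 and 18.04 CPM in female controls and 19.5, 10.6, 9.53 and 7.31 CPM in females with sedentary pain. Replicate 1 of the pain group lay within the control range and the other 3 lay below it. The change was -0.84 ± 0.28 (adjusted p = 0.0396), from a mean of 20.9 ± 3.73 to 11.7 ± 5.34 CPM. This call was lost in 7 of the 12 fits that left out 1 female library (adjusted p 0.00194 to 0.109 over the 12). Females with active pain had 19.6, 24.97, 14.1 and 20.8 CPM, spread around the controls, with a change of -0.07 ± 0.28 against controls and of 0.78 ± 0.28 (adjusted p = 0.0861) against sedentary pain. Male controls had 36.7, 36.6, 23.1 and 31.6 CPM and males with sedentary pain 18.9, 38.4, 33.7 and 27.8 CPM. Only replicate 1 of the latter lay below the controls. Males with active pain had 22.3, 19.0, 21.9 and 43.7 CPM, 3 libraries below the lowest control and 1 above the highest, and the changes against controls were -0.09 ± 0.28 in sedentary pain and -0.25 ± 0.28 in active pain.

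Perm1 (ENSMUSG00000078486, chr4:156215868-156221307, plus strand), the muscle regulator that PGC-1 and the estrogen-related receptors induce, measured 177, 218, 155 and 148 CPM in female controls and 140, 75.6, 59.4 and 42.5 CPM in females with sedentary pain. The groups did not overlap. Perm1 fell by 1.15 ± 0.32 on the log2 scale (adjusted p = 0.0194), from 175 ± 31.6 to 79.4 ± 42.7 CPM, which is 2.22-fold lower. With active pain females had 162, 171, 115 and 192 CPM, 3 libraries inside and 1 below the control range. The change was -0.12 ± 0.31 against controls and 1.03 ± 0.32 against sedentary pain, where Perm1 missed the threshold (adjusted p = 0.0540). Males had 230, 186, 157 and 196 CPM in controls, 86.6, 228, 203 and 172 CPM in sedentary pain and 137, 110, 135 and 220 CPM in active pain. Replicate 1 of the sedentary pain males and replicates 1 to 3 of the active pain males lay below the control range, with changes of -0.14 ± 0.28 and -0.35 ± 0.28.

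Ppargc1b (ENSMUSG00000033871, chr18:61298136-61400431, minus strand), which encodes the close relative PGC-1beta, was the lowest of the 10 per kilobase in controls. It had 3.12, 5.64, 2.19 and 2.60 CPM in female controls and 3.29, 1.75, 2.14 and 1.70 CPM in females with sedentary pain, and the ranges overlapped. Its change of -0.62 ± 0.34 had an adjusted p of 0.165. With active pain it had 2.45 to 4.20 CPM, and in males 3.70 to 5.73, 2.26 to 5.66 and 1.72 to 5.11 CPM in the 3 groups, with no call.

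Of the receptors, the 2 estrogen-related receptors differed in level and in variation. Esrra (ENSMUSG00000024955, chr19:6910977-6921813, minus strand), the main partner of PGC-1alpha at genes of oxidative phosphorylation, measured 114, 104, 83.6 and 94.4 CPM in female controls, 114, 122, 69.3 and 72.6 CPM in sedentary pain and 158, 93.3, 109 and 118 CPM in active pain. Within sedentary pain 1 library lay above the highest control, 1 just under it and 2 below the lowest, and the change was -0.09 ± 0.21 (adjusted p = 0.766). In active pain the change against controls was 0.27 ± 0.21. Male values were 104 to 111, 103 to 130 and 104 to 142 CPM in the 3 groups, and no comparison called the gene. Some 73 bases of its exons are shared with Trmt112 on the opposite strand, which had at most 973 counts where Esrra had at least 2054.

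Esrrg (ENSMUSG00000026610, chr1:187608791-188214885, plus strand), the estrogen-related receptor tied to slow and oxidative fibres, measured 9.92, 17.5, 8.48 and 4.46 CPM in female controls and 5.26, 2.22, 4.18 and 2.05 CPM in sedentary pain. Replicate 1 of the pain group overlapped the controls, and the change of -1.56 ± 0.59 missed the threshold (adjusted p = 0.0577). With active pain females had 2.74, 22.0, 10.4 and 18.5 CPM, 3 libraries above every sedentary pain library and replicate 1 within their range. The rise over sedentary pain was 1.98 ± 0.59 (adjusted p = 0.0496), which is 3.95-fold. The call rested on a narrow margin and was lost when any 1 of 11 of the 12 female libraries was left out, with adjusted p from 0.0521 to 0.1497, and kept only without sedentary pain replicate 1 (adjusted p = 0.0276). The sum of 10 slow fibre genes, which Esrrg is expressed with in muscle, was 139, 850, 3905 and 1756 CPM in the same 4 active pain females and 379 to 465 CPM in sedentary pain, and its part in the Esrrg difference was not tested. Males had 20.1, 10.9, 7.63 and 16.5 CPM in controls, 0.969, 20.7, 13.4 and 9.57 CPM in sedentary pain and 2.97, 6.72, 4.07 and 10.1 CPM in active pain. Each male group overlapped the others, with 1 sedentary pain library far below the rest, and no change was called.

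Ppara (ENSMUSG00000022383, chr15:85734983-85802819, plus strand), the receptor that drives fatty acid oxidation genes, had 4 to 216 counts per library and, in females with sedentary pain against controls, the largest change of the 10. It measured 3.60, 6.82, 2.42 and 1.62 CPM in female controls and 1.17, 0.292, 0.649 and 0.141 CPM in sedentary pain, with no overlap. The change was -2.66 ± 0.80 (adjusted p = 0.0282), a 6.31-fold lower level. Females with active pain had 0.588, 4.80, 0.539 and 2.22 CPM, 2 libraries at the sedentary pain level and 2 in the control range, and the change against sedentary pain of 1.86 ± 0.80 was not called (adjusted p = 0.132). In males 3 controls lay at 6.29 to 6.80 CPM and replicate 3 at 2.75 CPM. Sedentary pain males had 0.202, 3.51, 5.41 and 3.68 CPM and active pain males 0.818, 0.360, 1.54 and 5.78 CPM. All 8 lay below 3 of the 4 controls, and the changes of -0.80 ± 0.82 and -1.40 ± 0.84 were not called.

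Ppard (ENSMUSG00000002250, chr17:28232700-28301474, plus strand), the PPAR of oxidative muscle, showed no called change. It had 29.9 to 42.0, 29.2 to 47.2 and 34.6 to 37.9 CPM in the 3 female groups and 36.02 to 37.7, 30.7 to 47.8 and 31.0 to 41.1 CPM in the 3 male groups. Sedentary pain replicate 2 in females and replicate 1 in males were the highest of their groups. The change in females with sedentary pain was -0.04 ± 0.16.

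Nrf1 (ENSMUSG00000058440, chr6:30047988-30153458, plus strand) encodes nuclear respiratory factor 1, which binds promoters of respiratory chain and mitochondrial transcription genes, and its RNA kept to a narrow range. It lay between 10.4 and 13.2 CPM in all 12 females and between 12.03 and 15.5 CPM in all 12 males. The change in females with sedentary pain was 0.01 ± 0.12 and in males -0.04 ± 0.09, and male controls were 0.24 ± 0.10 above female controls (adjusted p = 0.246).

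Tfam (ENSMUSG00000003923, chr10:71225464-71238280, minus strand), the packaging and transcription factor of mitochondrial DNA, measured 40.001, 45.6, 38.6 and 39.4 CPM in female controls and 40.7, 31.1, 32.2 and 26.3 CPM in sedentary pain. Here 3 pain libraries lay below every control and replicate 1 lay among them. The change of -0.35 ± 0.13 missed the threshold (adjusted p = 0.0626). With active pain females had 37.1 to 41.9 CPM, and the male groups had 39.3 to 41.4, 32.3 to 44.9 and 35.04 to 41.4 CPM. The share of counts from the mitochondrial genome, whose transcription TFAM helps to start, was 9.26 ± 1.17% in female controls, 5.17 ± 2.41% in sedentary pain and 8.77 ± 2.38% in active pain. In males it was 10.3 ± 0.99%, 9.19 ± 3.13% and 9.002 ± 2.78%, with sedentary pain replicate 1 at 4.53%.

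Sirt3 (ENSMUSG00000025486, chr7:140863666-140882309, minus strand), the main deacetylase of the mitochondrial matrix and a PGC-1alpha target, was called in 2 comparisons. It measured 16.3, 16.7, 13.2 and 13.1 CPM in female controls, 12.8, 8.58, 9.70 and 6.25 CPM in sedentary pain and 16.7, 17.9, 13.5 and 18.3 CPM in active pain. The sedentary pain libraries lay below both other groups without overlap. Sirt3 fell by 0.68 ± 0.20 against controls (adjusted p = 0.0264) and was 0.85 ± 0.20 higher in active than in sedentary pain (adjusted p = 0.0328). Males had 14.97 to 16.7 CPM in controls and 13.4 to 17.0 CPM in active pain, and in sedentary pain 8.64, 16.7, 16.1 and 15.2 CPM, with replicate 1 alone below the controls. Exons of Sirt3 share 342 bases with Psmd13 and 418 with Ric8a on the opposite strand, and since the use of strand in counting is not given in the sources used here, some of its counts may belong to those genes.

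Across the set, 3 of the 10 genes (Ppara, Perm1 and Sirt3) were lower in every sedentary pain female than in every female control, and 11% of all genes tested were lower without overlap. The median change of the 10 was -0.65 beside -0.02 over all genes tested. Leaving out 1 library changed the number called: it was 0 without female control replicate 2, 1 without female control replicate 1 or sedentary pain replicate 2 or 4, and 6 without sedentary pain replicate 1, where Esrrg and Tfam were also called and 6674 of 14865 genes in all. With the 12 female libraries left out in turn, Perm1 was called 11 times, Ppara and Sirt3 8 times each and Ppargc1a 5 times. Ppargc1a was also lost without female control replicate 4, sedentary pain replicate 3 or active pain replicate 4. Where 1 gene was left it was Perm1. With 1 surrogate variable in the model 0 of the 10 were called, and 61 of all genes. Among libraries numbered 20 or lower (replicates 1 and 2, a number in the library names whose meaning is not given) the changes were -0.67 for Ppargc1a, -0.88 for Perm1, -2.75 for Ppara and -0.63 for Sirt3, with none called. Among those numbered 25 or higher (replicates 3 and 4) they were -1.09, -1.58, -2.33 and -0.74, with Ppargc1a and Perm1 called, where 3456 of 15401 genes were called in all. Scaling each library to its muscle fibre genes instead of TMM moved the median of all genes to 0.49 and the calls of all genes from 2847 higher and 2020 lower to 4891 higher and 173 lower. Under it Perm1 (-0.74 ± 0.25, adjusted p = 0.0344) and Ppara (-2.18 ± 0.76, adjusted p = 0.0415) were still called lower, while Ppargc1a (-0.40 ± 0.25, adjusted p = 0.234) and Sirt3 (-0.20 ± 0.23, adjusted p = 0.519) were not, and the uncalled values of Esrra, Ppard, Nrf1 and Tfam were above 0.

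For active against sedentary pain in females, 2 of the 10 genes were called higher, where 2.51% of all genes were called higher and 11.9% in either direction. The median change of the 10 was 0.67 beside 0.01 over all genes. The groups did not overlap for Sirt3 alone of the 10, and 5.42% of all genes were higher without overlap. A further 4 of the 10, Perm1, Ppargc1a, Ppara and Tfam, had an unadjusted p under 0.05 without passing after adjustment, and 32.2% of all genes had one. Both comparisons use the same 4 sedentary pain libraries, so a low level there lowers one and raises the other. Without sedentary pain replicate 1, which had the highest Perm1, Ppargc1a and Sirt3 of its group, 5 were called (Esrrg, Perm1, Ppargc1a, Sirt3 and Tfam), but the calls over all genes also went from 1730 of 14511 to 4316 of 14865. None was called without active pain replicate 1, 2 or 4 or sedentary pain replicate 3 or 4, nor under scaling to muscle fibre genes, where the median of all genes was -0.55. Among libraries numbered 20 or lower the changes were 0.67 for Sirt3 and 1.72 for Esrrg with none called, and among those numbered 25 or higher 0.999 and 2.21, with Esrrg, Perm1, Ppargc1a and Esrra called, where 2306 of 15401 genes were called in all.

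For active pain against controls in females no gene at all was called, 7.03% had an unadjusted p under 0.05, and none of the 10 was among these. The 10 changes ran from -0.80 to 0.42 with a median of -0.01. DESeq2 called 133 genes in this comparison and none of the 10. For males the tests called no gene in any comparison, with unadjusted p under 0.05 for 8.84% of genes in sedentary pain against controls, 7.25% in active pain against controls and 0.84% between the pain groups, and for none of the 10. DESeq2 called 280 and 123 genes in the first 2 of these and 0 in the last, and again none of the 10. Without male sedentary pain replicate 1, the library with much neutrophil RNA, the changes in sedentary pain against controls were 0.08 ± 0.27 for Ppargc1a, 0.08 ± 0.21 for Perm1 and 0.03 ± 0.10 for Sirt3, beside -0.09, -0.14 and -0.14 with it.

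Whether the changes differed between the sexes was tested directly over all 24 libraries, as the male change minus the female change. For sedentary pain against controls the largest was Ppara at 1.83 ± 1.20, and Perm1 differed by 0.98 ± 0.44 (adjusted p = 0.487). For active against sedentary pain the differences were -2.86 ± 0.94 for Esrrg (adjusted p = 0.229), -2.43 ± 1.22 for Ppara (adjusted p = 0.358), -1.21 ± 0.44 for Perm1 (adjusted p = 0.248) and -0.72 ± 0.28 for Sirt3 (adjusted p = 0.263). None of the 10 passed in any of the 3 tests, and neither did any other gene, with unadjusted p under 0.05 for 9.57%, 2.03% and 14.7% of genes. DESeq2 called 21, 3 and 108 genes in the 3 tests and none of the 10. So the calls in females and their absence in males are not shown to differ. The last of these depended on 1 library: without male sedentary pain replicate 1 Esrrg (-3.25 ± 0.78, adjusted p = 0.0228), Perm1 (-1.43 ± 0.41, adjusted p = 0.0289) and Sirt3 (-0.90 ± 0.24, adjusted p = 0.0247) passed, along with 2174 genes in all, and without female sedentary pain replicate 1 Perm1 alone of the 10 passed (-1.64 ± 0.39, adjusted p = 0.0330), with 622 genes in all. In controls no gene of the 10 was called between males and females, where 2.83% of genes were called and 14.9% had an unadjusted p under 0.05. There Ppargc1a was 0.62 ± 0.29 higher in males (adjusted p = 0.333).

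Immune and fibre markers were set beside the same libraries. In females with sedentary pain the order of the 4 libraries by rising macrophage RNA, replicates 1, 2, 3 and 4, was also the order of falling Ppargc1a and Perm1, while Ppara and Sirt3 were higher in replicate 3 than in replicate 2. Muscle fibre genes summed to 277181 to 391743 CPM in female controls and 300026, 373690, 207487 and 199742 CPM in these 4, and of the 26 genes 7 were called lower and 1 higher. Replicate 2 had the highest muscle fibre, neutrophil and erythroid (492 CPM, others 142 to 201 CPM) sums of its group, with a Perm1 level below every control. In active pain replicate 4 had the highest Perm1 of its group in each sex (192 CPM in females, 220 CPM in males). Its macrophage sum (562 and 470 CPM) was above those of replicates 1 and 2 in females and 1 and 3 in males. In females with active pain replicate 3 had the most macrophage RNA (668 CPM) and the lowest Perm1 (115 CPM). In males the lowest Perm1 of the sedentary pain group and of the active pain group was in the library with the most macrophage RNA of each. The muscle fibre sum of that library was the highest of its group in sedentary pain (324244 CPM, others 304138 to 320427 CPM) and the lowest in active pain (240629 CPM, others 316480 to 358379 CPM). By the mean log2 level of the 26 genes relative to TMM scaling, that library was the lowest in both groups. The value was -0.17 in sedentary pain (others -0.02 to 0.09) and -0.37 in active pain (others -0.26 to 0.02). Lymphocyte genes summed to 0.799 to 3.39 CPM in female controls and 4.65 to 118 CPM in sedentary pain, and adipocyte genes to 472 to 6487 and 400 to 906 CPM, with 8 of 10 adipocyte genes called lower and Ucp1 at 0 in the latter group. Of 8 endothelial genes 3 were called lower and of 8 fibroblast genes 3 higher. These counts stand beside 13.9% of all genes called lower and 19.6% called higher in females with sedentary pain against controls. In active against sedentary pain 3 of the 5 lymphocyte genes tested were called lower, where 11.9% of all genes were called in either direction. The part of these cells in the changes of the 10 genes was not tested.

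**Figure D4:**
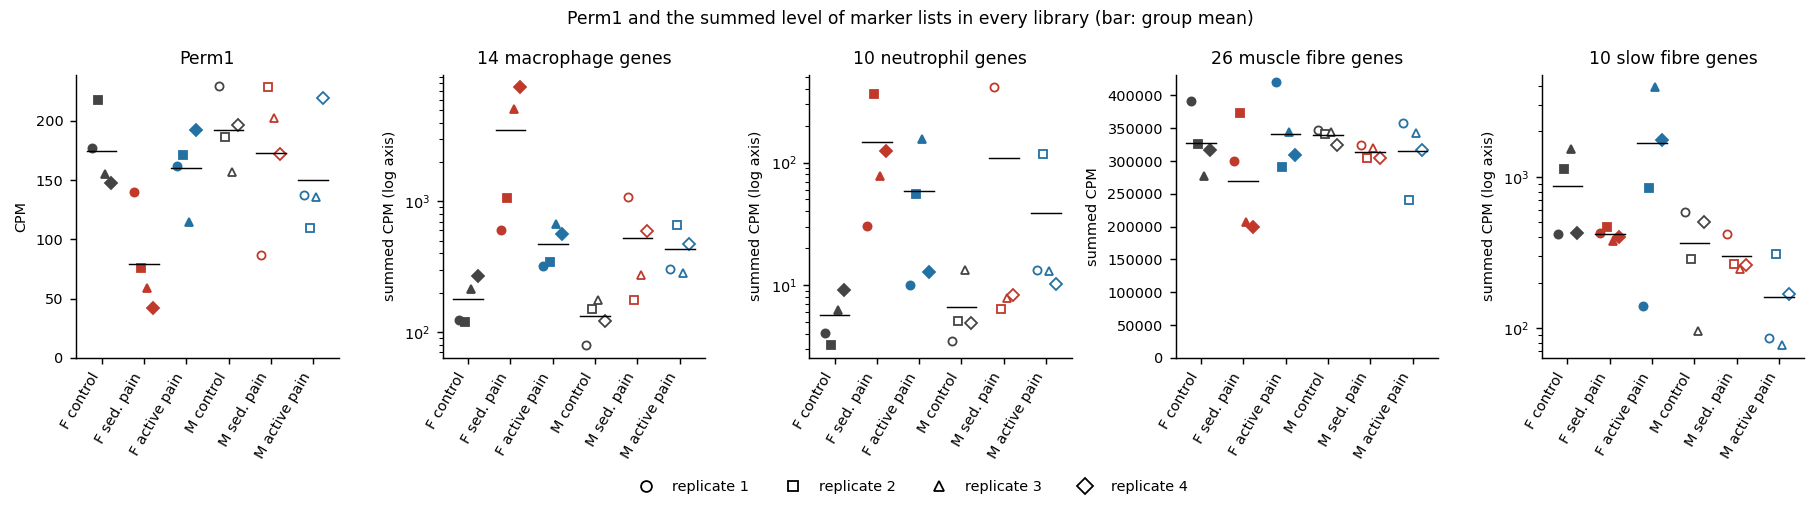
CPM of Perm1 (linear axis) beside the summed CPM of macrophage, neutrophil and slow fibre genes (log axes) and muscle fibre genes (linear axis) in every library, with marker shape for the replicate and a bar for the group mean. Perm1 and macrophage RNA run in opposite order over the 4 females with sedentary pain, and male sedentary pain replicate 1 is low in Perm1 and high in macrophage and neutrophil RNA.

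Libraries of the same group also differed, and 6 of the other 9 genes varied with Ppargc1a. After each group's mean was subtracted from the log2 CPM, Perm1 followed Ppargc1a over the 24 libraries with Pearson r = 0.93 and Spearman rho = 0.91. Both p-values were 1e-05, the smallest that 100000 permutations within groups can give, and 9e-05 after adjustment over the 9 genes. No other gene of the 15102 tested had a higher r with Ppargc1a, and the median over them was -0.09. Perm1 also ranked 1 of 15102 with RLE scaling (r = 0.93) and with muscle fibre scaling (r = 0.87). Ppara had r = 0.83 and rho = 0.80 (adjusted permutation p = 9e-05 and 0.00027), Tfam 0.81 and 0.80 (0.00018 and 0.00027), Sirt3 0.81 and 0.81 (0.000198 and 0.000337), Ppargc1b 0.76 and 0.74 (0.00018 and 0.000414) and Esrrg 0.63 and 0.69 (0.00351 and 0.00171). These values were at or above those of all but 1.03%, 2.16%, 2.24%, 6.28% and 18.2% of genes. Esrra (0.27 and 0.31, adjusted permutation p = 0.401 and 0.283), Nrf1 (-0.20 and -0.16, 0.401 and 0.543) and Ppard (-0.09 and -0.12, 0.740 and 0.634) did not pass.

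With the 2 libraries farthest from the median of Ppargc1a left out, female sedentary pain replicate 1 and male active pain replicate 4, r was 0.90 for Perm1, 0.81 for Ppara, 0.78 for Tfam, 0.80 for Sirt3, 0.71 for Ppargc1b and 0.63 for Esrrg. For Perm1 r was 0.93 in the 12 females and 0.92 in the 12 males, and 0.92 in the libraries numbered 20 or lower and 0.95 in those numbered 25 or higher. For Sirt3 it was 0.93 in females and 0.69 in males, and 0.90 and 0.76 by library number. For Tfam it was 0.88 and 0.73 by sex and 0.90 and 0.63 by library number, but with muscle fibre scaling it dropped to 0.34, where 24.5% of genes were as high. With that scaling Sirt3 had 0.62, where 8.95% of genes were as high, and Esrra -0.34. For Esrrg r was 0.46 in females and 0.76 in males. Esrra went from -0.51 in the lower to 0.69 in the higher library numbers and Ppard from -0.85 to 0.37 (the difference was not tested). Libraries share their makeup of muscle and other cells across all genes, and what part of r that makes up was not tested.

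**Figure D5:**
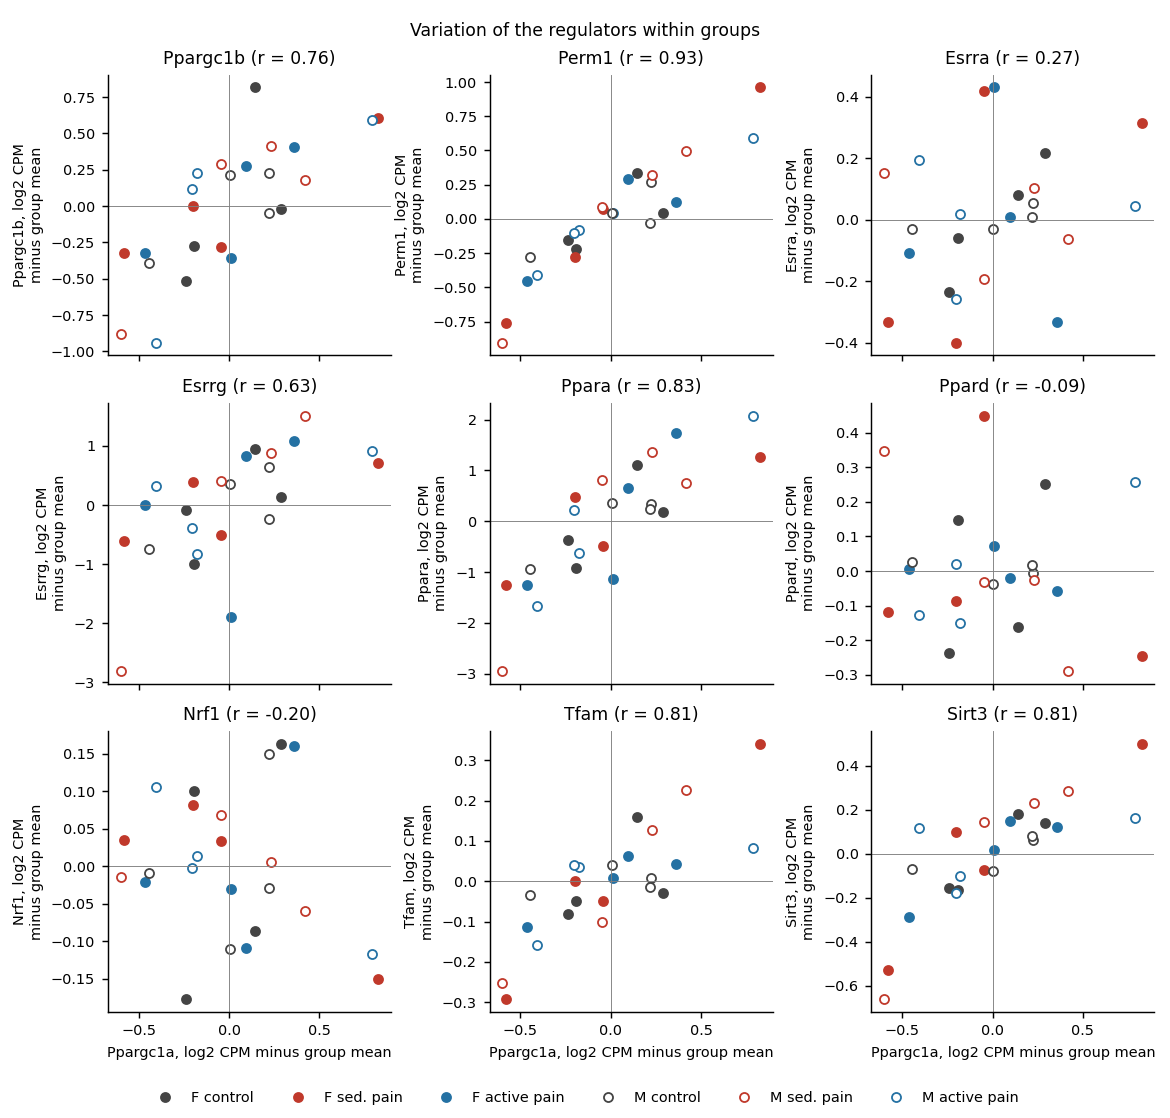
Log2 CPM of each gene minus its group mean (y axis) against that of Ppargc1a (x axis), 1 point per library coloured by group, filled for females and open for males, with Pearson r above each panel. Perm1 lies closest to a line (r = 0.93), while Esrra, Ppard and Nrf1 show no clear slope.

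Over all 24 libraries without subtraction of group means, the genes outside the set with the highest Pearson r with Ppargc1a, of 10586 protein-coding genes ranked, were Cep85 (0.95), Lynx1 (0.94), Dnajc27 (0.94), Trak2 (0.94) and Trp53inp2 (0.935). Trak2 encodes an adaptor of mitochondrial transport and Lynx1 a modulator of nicotinic acetylcholine receptors. Trp53inp2 went from 396 ± 60.9 CPM in female controls to 224 ± 80.6 CPM in sedentary pain (-0.84, adjusted p = 0.0199). Of the 5, Trak2 alone missed the threshold in that comparison (-0.61, adjusted p = 0.0763).

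The wider pathway was described by 5 lists, whose counts stand beside 13.9% of all genes called lower and 19.6% called higher in females with sedentary pain against controls, and 2.51% called higher in active against sedentary pain. Among 32 genes of fatty acid oxidation, the citrate cycle, the respiratory chain and other targets of PGC-1, 14 were called lower and 0 higher in females with sedentary pain, with a median change of -0.49. Idh2, the mitochondrial NADP-linked isocitrate dehydrogenase that SIRT3 deacetylates, went from 239 ± 80.6 to 102 ± 28.4 CPM (-1.25 ± 0.30, adjusted p = 0.0120). Acadm, the medium-chain acyl-CoA dehydrogenase and a classical PPARA target, went from 302 ± 29.3 to 159 ± 58.4 CPM (-0.94 ± 0.23, adjusted p = 0.0124). Kyat3, a kynurenine aminotransferase that PGC-1alpha raises in muscle, went from 14.2 ± 1.91 to 8.72 ± 1.93 CPM (-0.72 ± 0.17, adjusted p = 0.0101). In active against sedentary pain 6 of the 32 were called higher and 0 lower, Idh2 by 1.39 ± 0.31 (adjusted p = 0.0328) and Kyat3 by 0.64 ± 0.17 (adjusted p = 0.0355) among them.

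Of 22 coregulators and partner receptors 8 were called lower and 1 higher in females with sedentary pain, and 2 were called higher and 1 lower in active against sedentary pain. The thyroid hormone receptor Thra changed by -0.65 ± 0.11 (adjusted p = 0.00318) and the PPAR partner Rxra by -0.71 ± 0.17 (adjusted p = 0.0104). Thra was called higher in active against sedentary pain (0.53 ± 0.11, adjusted p = 0.0328). Of 18 genes of mitochondrial DNA copying and expression 4 were lower and 0 higher, with Mgme1 at -0.64 ± 0.14 (adjusted p = 0.00820), Mterf2 at -0.83 ± 0.23 (adjusted p = 0.0189) and the protease Lonp1 at -0.49 ± 0.15 (adjusted p = 0.0279). In active against sedentary pain 2 of the 18 were called, both higher, Mterf2 by 0.82 ± 0.23 (adjusted p = 0.0405) and Mgme1 by 0.49 ± 0.14 (adjusted p = 0.0460). Of 14 genes of mitochondrial fusion, fission and mitophagy 4 were lower and 0 higher. Bnip3, a mitophagy receptor, changed by -0.71 ± 0.13 (adjusted p = 0.00416), Opa1, which fuses inner membranes, by -0.71 ± 0.19 (adjusted p = 0.0175) and the mitophagy kinase Pink1 by -0.62 ± 0.18 (adjusted p = 0.0265). In active against sedentary pain 2 of the 14 were called, both higher, Bnip3 by 0.53 ± 0.13 (adjusted p = 0.0332) and Pink1 by 0.63 ± 0.18 (adjusted p = 0.0456).

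The 30 genes upstream of PGC-1alpha had 5 called higher and 8 lower, and 33.5% of all genes were called in either direction. Camkk2, a kinase that activates AMPK, rose from 4.70 ± 1.06 to 14.8 ± 6.35 CPM (1.63 ± 0.32, adjusted p = 0.00509), and Tfe3, a factor of the lysosome and of energy metabolism, rose by 1.29 ± 0.30 (adjusted p = 0.0102), while the calcineurin subunit Ppp3cb fell by 0.84 ± 0.23 (adjusted p = 0.0184). Camkk2 and Tfe3 were the 2 of the list called lower in active than in sedentary pain, with changes of -1.58 ± 0.32 and -1.19 ± 0.30. Of all genes 11.9% were called in either direction there. Macrophage genes moved in the same comparisons, with 14 of 14 called higher in sedentary pain against controls and 12 of 14 called lower in active against sedentary pain, and their part in the changes of the 5 lists was not tested. The medians of the lists in sedentary pain against controls were -0.24 upstream, -0.42 for coregulators, -0.25 for mitochondrial DNA genes and -0.44 for mitochondrial dynamics, beside -0.02 over all genes. No gene of the 5 lists was called in females with active pain against controls or in any comparison within males.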

How the data were processed

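RNA of 24 samples of mouse left gastrocnemius was sequenced as stranded TruSeq libraries on a NovaSeq, per the labels' protocols. The deposited files hold 1 whole-number count per Ensembl gene and sample, which the authors left unnormalized. The submitters' processing notes name HISAT2 2.1.0, Salmon 0.9.1, featureCounts, DESeq2 1.24.0, mm10 and GRCm38.p6; which of the tools made the counts, and whether by strand, is not given in the sources used here.

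Samples were grouped by their titles. Positions, exon lengths and GC content came from GENCODE M21 (GRCm38), and promoter sequences from RefSeq (GRCm38.p6). Counts were scaled by TMM, filtered with filterByExpr (minimum count 10) and tested with edgeR 4.0.16 quasi-likelihood F tests (robust, two-sided) in R 4.3.3, with limma 3.58.1. Each sex was fitted with its 12 samples, and sex differences with all 24. P-values were adjusted by Benjamini-Hochberg over all genes tested, threshold 0.05. Correlations used log2 CPM (prior count 2) and 100000 permutations within groups, in Python 3.11.15 with NumPy 2.4.6, pandas 2.3.3 and SciPy 1.17.1; figures used matplotlib 3.10.9. Counts were simulated with 100 genes changed 2-fold and 100 changed 4-fold. The female fit found 50% and 85% of them (14511 genes), and the male fit 42% and 94% (14404 genes). Far more genes were called in the real comparison of sedentary pain with controls in females (33.5%), so these shares are not its detection rates.

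The 10 genes, the lists and the tests were chosen with earlier results of these data known. All 10 are described in every comparison. Of the 5 pathway lists, up to 3 genes each with the smallest p in females with sedentary pain against controls were named, among those past the threshold, with their values in active against sedentary pain where called there; 1 gene that this rule names is not reported here. The 5 genes most like Ppargc1a were ranked by Pearson r over 24 samples (mean log2 CPM of at least 1). Alternatives were scaling by relative log expression (RLE), no filter, DESeq2 1.42.0, muscle fibre scaling, the replicate block, the library number range as a term, 1 surrogate variable (sva 3.50.0), GC content and length correction (splines with 5 degrees of freedom), other sample sets and each sample left out. The symbol Aldoa stands on more than 1 gene, and the one with more counts was used.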

Additional observations from a re-analysis of the deposited data

Results flagged for a closer look

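Each of the 10 genes was checked in each of the 6 groups of 4 for 1 library far from the other 3, which made 60 checks, and chance flags about 1 in 20. There were 2. Ppargc1a in male active pain replicate 4 was 43.7 CPM, where the other 3 libraries of that group had 19.0 to 22.3 CPM. This library also had the highest Perm1, Ppara and Sirt3 of its group. Ppara in male control replicate 3 was 2.75 CPM, where the other 3 had 6.29 to 6.80 CPM, and the same library had the lowest Ppargc1a and Perm1 of the male controls.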

How the results depend on the processing

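In females with sedentary pain against controls the test called 4 of the 10 genes. It called 2 with muscle fibre scaling, 0 with 1 surrogate variable, 0 in libraries numbered 20 or lower and 2 in those numbered 25 or higher, and 0 to 6 with each library left out in turn. The other 8 alternatives called 3 to 5, DESeq2 5. For active against sedentary pain, where the test called 2, it called 0 without the filter on low counts, 0 with muscle fibre scaling, 4 with the library number range as a term, 0 with 1 surrogate variable, 0 in libraries numbered 20 or lower, 4 in those numbered 25 or higher, 0 with only the 2 groups compared and 0 to 5 with each library left out. The sex difference of active against sedentary pain went from 0 to a range of 0 to 3 with each library left out. The cause of these shifts was not tested, beyond the fewer samples of the subsets. The other 7 comparisons called none of the 10 under any alternative. The number of genes correlated with Ppargc1a was 6, and 5 to 7 under the alternatives. The surrogate variable gave counts of calls only. Of 2620 values of single genes under the other alternatives, 2540 kept their side of the threshold, 55 lost a call, 25 gained one, none of the calls reversed, and 143 uncalled values changed sign. Over all genes, sedentary pain against controls in females gave 4867 calls, 61 with the surrogate variable, 238 in libraries numbered 20 or lower, 2847 with only the 2 groups compared and 2486 to 6674 with each library left out. Active against sedentary pain gave 1730 calls, 174 without the filter, 4506 with muscle fibre scaling, 2745 with the library number range as a term, 3154 with DESeq2, 0 with the surrogate variable, in libraries numbered 20 or lower and with only the 2 groups compared, and 0 to 4316 with each library left out.

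Same-numbered replicates are not stated to share an origin, and their residuals correlated between groups by -0.32 to 0.42 in females and -0.65 to 0.59 in males, so the numbers were not taken as pairs. With the replicate block 4 of the 10 genes and 3739 of all 14511 were called in sedentary pain against controls in females, and 3 and 1629 in active against sedentary pain. Depth limits Ppara, Ppargc1b and Esrrg most, with as few as 4, 30 and 24 counts in a library.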
